A study of Mus musculus with 6 samples.

Results

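The enzymes described here make pyrimidine nucleotides and the deoxynucleotides used to copy DNA. They were taken from a fixed list of 9 gene symbols (Cad, Dhodh, Umps, Ctps, Ctps2, Tyms, Dut, Rrm1 and Rrm2), and each was found as 1 row among 55536 Ensembl genes. The values come from RNA-seq of C57BL/6 mouse embryonic stem cells, with 3 wild-type libraries (WT 1 to 3) and 3 libraries of the genotype Max-/- (Max-KO 1 to 3). MAX is the protein with which MYC and MYCN pair to bind DNA. The labels name no other treatment, and do not say how Max was removed, how many clones were used or whether the samples of a group were separate cultures. The p-values therefore measure only the spread between these samples, which may be technical.

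Cells build pyrimidines from small precursors or recover them from uridine, cytidine and thymidine. In the first route CAD carries out the opening steps, DHODH in the inner mitochondrial membrane oxidizes the product to orotate, and UMPS turns orotate into UMP, which is phosphorylated and aminated by CTP synthase to give CTP. Ribonucleotide reductase, built of the large subunit RRM1 and a small subunit, RRM2 or RRM2B, converts ribonucleotides into deoxynucleotides, while DUT and TYMS supply the thymidine branch. Rapidly dividing cells such as embryonic stem cells depend on these steps, and Cad is a textbook target gene of MYC.

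Levels are in FPKM, which divides a gene's fragments by its transcript length and by the library's total. Values of different genes can thus be set side by side, though only roughly where bias particular to a gene remains. Summed FPKM was 743406 to 774405 in the WT libraries and 645169 to 658361 in the Max-KO libraries. FPKM does not state the depth. From the steps between low values it was estimated at 20.7 to 28.1 M fragments per library, which puts Ctps2, the enzyme with the lowest level, at about 412 to 732 fragments. Differences are Max-KO minus WT of log2(FPKM + 1), which understates changes of low genes, and a gene was called at an adjusted p under 0.05 (limma, Benjamini-Hochberg over the 14661 genes tested). The median difference of all tested genes was 0.21, and it moved to 0.43 after rescaling to TPM, 0.03 with median-ratio size factors and −0.03 when libraries were quantile normalized. Max itself was listed at 41.6, 50.2 and 42.3 FPKM in WT 1 to 3 and at 35.8, 39.6 and 43.4 FPKM in Max-KO 1 to 3. These groups overlapped, and since a deletion may spare much of the mRNA, a value for the whole gene is no check of the genotype labels. Of the 10 embryonic stem cell markers all were at 16 FPKM or more in every library except Klf4 in WT 3 (15.7 FPKM), and 6 were called higher and 2 lower in Max-KO. In the same libraries the 10 germ cell markers summed to 34.9 to 45.7 FPKM in WT and 1300 to 1370 FPKM in Max-KO with none at 0, and 9 markers of the 2-cell-like state summed to 0.03 to 0.13 and 55.4 to 77.8 FPKM, with Zscan4c, Zscan4d, Tcstv1 and Zfp352 at 0 in every WT library. Trophoblast markers summed to 88.8 to 97.7 FPKM in WT and 107 to 121 FPKM in Max-KO. Most of this came from Krt8, Krt18 and Tfap2c (means 32.1, 28.5 and 27.7 FPKM in WT, 37.8, 38.5 and 22.5 FPKM in Max-KO). Cdx2 was at no more than 0.40 FPKM in any library. From low WT means, Hand1 rose from 1.13 to 5.64 FPKM and Eomes from 2.52 to 4.22 FPKM. Gata3 rose from 0.27 to 4.06 FPKM and Elf5 from 0.243 to 2.19 FPKM, and all of these were called higher. Primitive endoderm markers summed to 27.1 to 31.2 FPKM in WT and 45.3 to 61.3 FPKM in Max-KO, of which Lama1 made up most (mean 26.9 and 46.0 FPKM). Some calls in these lists carry little weight, since the gene averaged under 1 FPKM in WT and was tested only because of its Max-KO level. This held for all 9 markers of the 2-cell-like state and for Taf7l, Tex101 and Mov10l1 of the germ cell list. It also held for Elf5 and Gata3 of the trophoblast list and Gata4, Sox17 and Pdgfra of the endoderm list. The other germ cell markers averaged over 1 FPKM in WT, among them Dazl (2.27 to 360 FPKM) and Ddx4 (8.08 to 170 FPKM). Of 10 fibroblast markers 6 were under 1 FPKM in all 6 libraries. The list summed to 63.8 to 80.6 FPKM in WT and 35.5 to 53.2 FPKM in Max-KO. Vim made up most of this (means 64.2 and 36.6 FPKM, called lower). Thy1 was at 4.59 and 4.64 FPKM (not called) and Col1a1 at 1.92 and 3.16 FPKM (called higher). The part of these other cell states in the results was not tested, and in bulk RNA fewer cells of a type and less RNA per cell cannot be told apart.

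All 9 enzymes passed the filter of a mean of 1 FPKM in at least 1 group, and all were lower in the libraries labelled Max-KO: 8 were called lower, none higher, and Ctps2 was not called. Among all tested genes 23.2% were called lower and 43.0% higher. In all 9 every Max-KO library lay under every WT library, which held for 25.7% of tested genes, while the opposite order held for 46.3%. The falls were graded. Cad, Dhodh and Ctps fell at least 2-fold on the log2(FPKM + 1) scale, against 4.86% of tested genes, whereas Rrm1 differed by little more than the spread between libraries. The enzymes' median difference was −0.82.

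**Figure D1:**
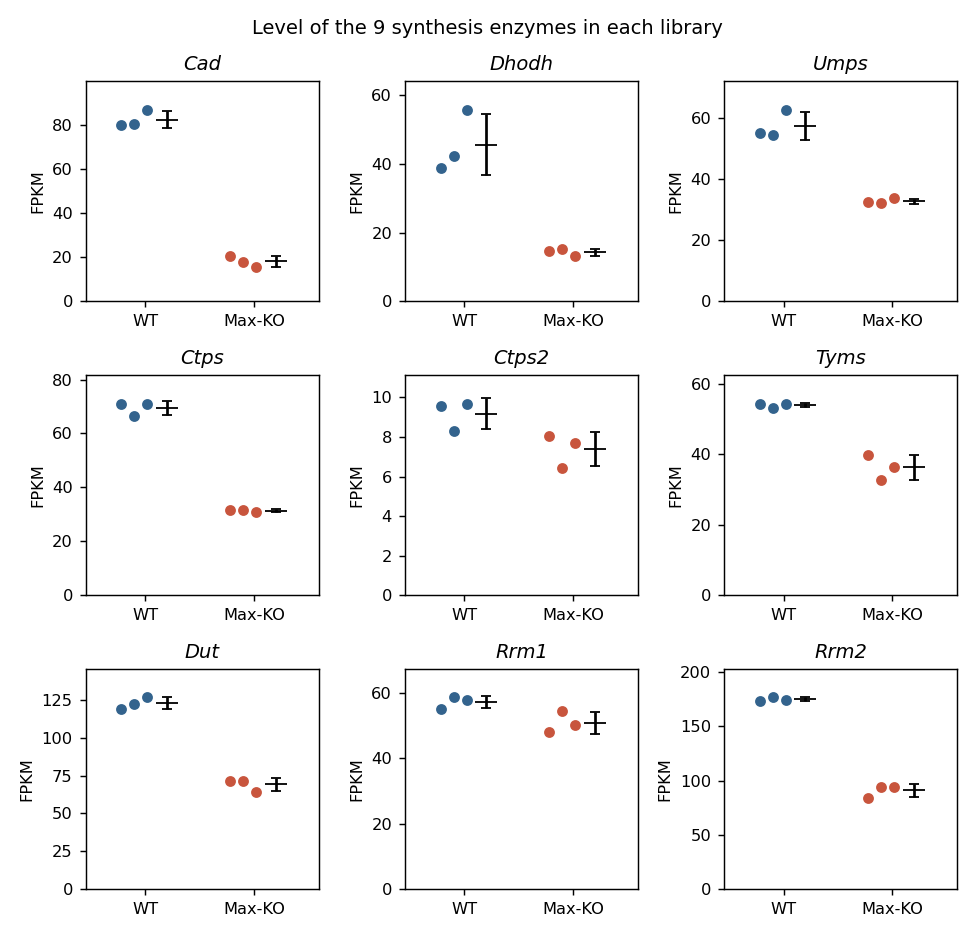
Level in FPKM (vertical axes, each from 0) of the 9 enzymes in the 3 WT libraries (blue) and the 3 Max-KO libraries (red), points in the order of replicates 1 to 3, with mean and SD in black. The groups are separate in every panel, by a wide gap for Cad (79.8 to 86.8 against 15.6 to 20.6 FPKM) and a narrow one for Rrm1 and Ctps2.

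The 3 enzymes that build UMP fell by different amounts. Cad (ENSMUSG00000013629; GRCm38 chromosome 5, 31054780 to 31078479, plus strand) stood at 79.8, 80.4 and 86.8 FPKM in WT 1 to 3 and at 20.6, 17.9 and 15.6 FPKM in Max-KO 1 to 3. The Max-KO values were all under 21 FPKM and the WT values all over 79, so the lowest WT library was still far above the highest Max-KO library. Mean level was 4.56-fold lower in Max-KO, with a log2 difference of −2.14 ± 0.10 (SE, n = 3 per group; limma adjusted p = 6.46e-06), and 0.437% of tested genes had a lower difference. Under the 4 other scalings and corrections the difference was −1.94 to −2.33.

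The sequences around the start of Cad are shown because it fell most among the enzymes. RefSeq's window for GRCm38.p6, 250 bases before the start to 50 after, was searched on both strands for CACGTG (the E-box bound by MYC-MAX), its variant CACGCG, TTTCGCGC and TTTGGCGC (E2F type), CCAAT (NF-Y type) and TATAAA. None of these strings was in the Cad window, whose 250 bases upstream (chr5:31054530-31054779, plus strand) are printed in lower case. The first exon of the longest coding GENCODE M21 transcript, a window added after the data were seen, does hold CACGTG, at base 78 of the transcript, before the start codon at base 176. It is shown in capitals with its neighbours (chr5:31054845-31054874, plus strand). Among 12739 tested protein-coding genes 3.49% had CACGTG in the first 200 bases of the first exon, and Cad was the only 1 of the 9 enzymes that did.
Cad upstream: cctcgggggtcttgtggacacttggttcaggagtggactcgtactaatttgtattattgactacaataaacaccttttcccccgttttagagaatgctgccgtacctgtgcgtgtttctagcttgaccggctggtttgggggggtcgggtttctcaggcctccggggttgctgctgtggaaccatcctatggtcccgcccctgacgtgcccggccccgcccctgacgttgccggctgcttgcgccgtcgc
Cad first exon: cgcgcagcgagcCACGTGgaccaactccgg
A match of this kind is a description of the letters and does not show that a factor binds there.

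Dhodh (ENSMUSG00000031730; chromosome 8, 109591343 to 109608673, minus strand) was at 38.7, 42.4 and 55.8 FPKM in WT 1 to 3 and at 14.7, 15.1 and 13.2 FPKM in Max-KO 1 to 3. WT 3 was the highest library and widened the WT spread (SD 8.98 FPKM), while the Max-KO libraries lay close together (SD 1.04 FPKM). The log2 difference was −1.59 ± 0.14 (SE; limma adjusted p = 6.9e-05), and −1.44 without WT replicate 3. RefSeq's table held no window for Dhodh.

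Umps (ENSMUSG00000022814; chromosome 16, 33954782 to 33967038, minus strand) went from 55.2, 54.6 and 62.7 FPKM in WT to 32.4, 32.3 and 33.8 FPKM in Max-KO. Its fall, −0.79 ± 0.07 (SE; limma adjusted p = 7.71e-05), was well beyond the spread of either group. It was also smaller than that of Cad. A ratio within a library does not depend on a scaling factor for that library, but bias particular to a gene does not cancel in it. With a correction for GC content and length the differences were −2.17 for Cad and −1.09 for Umps, against −2.14 and −0.79 as deposited. The ratio of Cad to Umps was 1.45, 1.47 and 1.38 in WT and 0.637, 0.555 and 0.463 in Max-KO. Cad mRNA thus stood above Umps mRNA in every WT library and below it in every Max-KO library. The difference in log2 ratio was −1.39 (exact permutation test, 2-sided, p = 0.1, adjusted p = 0.1 over 6 ratios). With 3 libraries against 3 no smaller p than 0.1 is possible, so no ratio could pass a threshold of 0.05. An antisense gene overlapping Umps, Gm15829, was listed at no more than 0.22 FPKM.

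The paralogous CTP synthases, which turn UTP into CTP, differed in level and in size of change. Ctps (ENSMUSG00000028633; chromosome 4, 120539868 to 120570276, minus strand) was at 71.1, 66.6 and 70.9 FPKM in WT and 31.4, 31.7 and 30.7 FPKM in Max-KO. The libraries of each group agreed closely, and the log2 difference was −1.13 ± 0.05 (SE; limma adjusted p = 6.57e-06). Ctps2 (ENSMUSG00000031360; chromosome X, 162901238 to 163032508, plus strand) was at 9.57, 8.30 and 9.69 FPKM in WT and 8.06, 6.44 and 7.69 FPKM in Max-KO. WT 2 and Max-KO 1 nearly met, and the difference of −0.28 ± 0.11 (SE; 95% interval −0.54 to −0.02) missed the threshold (limma adjusted p = 0.0542). Without Max-KO replicate 1 (−0.34, adjusted p = 0.0499) or WT replicate 2 (−0.35, adjusted p = 0.0453) it passed, as it did under median-ratio scaling (−0.46), quantile normalization (−0.60) and the correction for GC content and length (−0.72, adjusted p = 0.00184), while after rescaling to TPM it was −0.09. The level of Ctps was 7.43, 8.02 and 7.32 times that of Ctps2 in WT and 3.9, 4.93 and 3.99 times in Max-KO. This ratio did not overlap between groups (log2 ratio difference −0.84, exact permutation p = 0.1, the smallest possible).

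Ribonucleotide reductase changed in its subunits to different extents. Rrm2 (ENSMUSG00000020649; chromosome 12, 24708241 to 24714146, plus strand), the small subunit made in S phase, had the highest level of the 9 enzymes in both groups. It was at 173, 177 and 175 FPKM in WT and at 84.1, 94.3 and 94.4 FPKM in Max-KO, a log2 difference of −0.94 ± 0.06 (SE; limma adjusted p = 1.97e-05). Rrm1 (ENSMUSG00000030978; chromosome 7, 102441695 to 102469771, plus strand), the large subunit, was at 55.1, 58.6 and 57.9 FPKM in WT and at 47.9, 54.4 and 49.99 FPKM in Max-KO. Max-KO 2 came within 1 FPKM of WT 1, and the difference of −0.17 ± 0.06 (SE; 95% interval −0.32 to −0.02) only just passed (limma adjusted p = 0.0486). It no longer passed when any 1 WT library was left out (adjusted p = 0.0648, 0.131 and 0.0819 for WT 1, 2 and 3), nor without Max-KO 1 (0.147) or Max-KO 3 (0.113), and after rescaling to TPM the difference was 0.04 (adjusted p = 0.58). Median-ratio scaling gave a larger difference of −0.36 (adjusted p = 0.00245), and correcting for GC content and length gave −0.61 (adjusted p = 0.000252). The ratio of Rrm2 to Rrm1 was 3.14, 3.02 and 3.02 in WT and 1.76, 1.73 and 1.89 in Max-KO. All Max-KO libraries were below all WT libraries (log2 ratio difference −0.77, exact permutation p = 0.1, the smallest possible).

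The alternative small subunit moved the other way. Rrm2b (ENSMUSG00000022292; chromosome 15, 37923952 to 37961318), a target gene of p53 that supports deoxynucleotide supply outside S phase, was at 3.97, 4.02 and 3.79 FPKM in WT and 9.26, 11.7 and 10.9 FPKM in Max-KO. It rose in every Max-KO library, 2.70-fold in mean level, with a log2 difference of 1.23 ± 0.10 (SE; limma adjusted p = 6.8e-05). With the GC and length correction the difference was 0.57 (adjusted p = 0.00406). Relative to Rrm2 it went from 0.0229, 0.0227 and 0.0217 in WT to 0.110, 0.124 and 0.115 in Max-KO (log2 ratio difference 2.37, exact permutation p = 0.1, the smallest possible). Rrm2 mRNA still exceeded Rrm2b mRNA in each library. A processed pseudogene within Rrm2b, Gm3362, was listed at 0.84 to 2.84 FPKM, and how reads of such a copy were assigned is not known here.

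**Figure D2:**
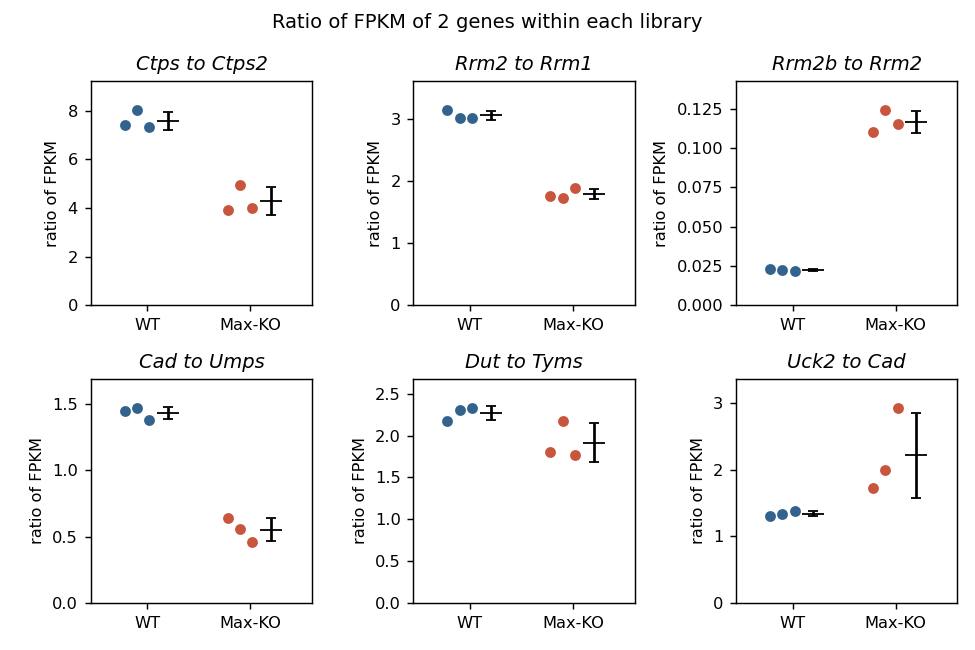
Ratio of FPKM of 2 genes within each library (vertical axes, each from 0) for WT (blue) and Max-KO (red), points in the order of replicates 1 to 3, with mean and SD in black. The groups do not overlap in any of the 6 panels, though for Dut to Tyms the lowest WT ratio and the highest Max-KO ratio nearly touch (both 2.18).

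The upstream windows of the genes for both reductase subunits are shown, with CCAAT in capitals. Rrm2 was lower under every setting, while the small difference of Rrm1 depended on the libraries and the scaling. Any relation of these sequences to the levels was not tested. Rrm1 held it at 91 and 45 bases before the start and Rrm2 at 50 bases, and neither held another of the strings searched. CCAAT was in 37.4% of all 32851 windows in the table, and of the 8 enzymes with a window it was in Ctps2, Rrm1 and Rrm2. The windows are on the plus strand of GRCm38.p6, at chr7:102441445-102441694 and chr12:24708004-24708253, from RefSeq.
Rrm1 upstream: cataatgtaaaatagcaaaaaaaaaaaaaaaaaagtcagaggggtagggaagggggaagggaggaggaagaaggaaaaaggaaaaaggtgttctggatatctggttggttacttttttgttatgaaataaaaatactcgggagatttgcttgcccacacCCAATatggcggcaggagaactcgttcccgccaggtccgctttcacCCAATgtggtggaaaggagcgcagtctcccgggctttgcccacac
Rrm2 upstream: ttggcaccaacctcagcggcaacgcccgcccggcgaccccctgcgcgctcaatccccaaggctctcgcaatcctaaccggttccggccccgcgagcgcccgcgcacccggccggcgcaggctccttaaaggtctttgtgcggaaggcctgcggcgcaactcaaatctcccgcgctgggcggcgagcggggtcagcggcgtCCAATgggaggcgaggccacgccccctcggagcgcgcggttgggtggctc
The base content of these windows also differed, at 46.0% G and C in Rrm1 and 72.4% in Rrm2.

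In the thymidine branch DUT cleaves dUTP to dUMP, and TYMS adds the methyl group that makes dTMP. Dut (ENSMUSG00000027203; chromosome 2, 125247190 to 125258608, plus strand) was at 119, 123 and 127 FPKM in WT and at 71.8, 71.5 and 64.5 FPKM in Max-KO, with a log2 difference of −0.82 ± 0.06 (SE; limma adjusted p = 3.87e-05). Tyms (ENSMUSG00000025747; chromosome 5, 30058202 to 30073617, minus strand) was at 54.4, 53.3 and 54.4 FPKM in WT and at 39.8, 32.8 and 36.4 FPKM in Max-KO. The WT libraries were nearly equal and the Max-KO libraries more scattered, and the difference was −0.56 ± 0.08 (SE; limma adjusted p = 0.000573). It was −0.36 after rescaling to TPM and −0.88 with the GC and length correction. The pseudogene Tyms-ps was listed at 0 in all 6 libraries. Dut stood at 2.18, 2.30 and 2.33 times Tyms in WT and at 1.80, 2.18 and 1.77 times in Max-KO (log2 ratio difference −0.25, exact permutation p = 0.1, the smallest possible).

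Tyms was the only 1 of the 8 enzymes with a RefSeq window that held the E-box CACGTG there, 61 bases before the start. The E-box is in capitals in the upstream 250 bases (GRCm38.p6, chr5:30073626-30073875, minus strand, from RefSeq). Of all windows 7.15% held CACGTG, and no window of the 8 enzymes held CACGCG, TTTCGCGC or TTTGGCGC.
Tyms upstream: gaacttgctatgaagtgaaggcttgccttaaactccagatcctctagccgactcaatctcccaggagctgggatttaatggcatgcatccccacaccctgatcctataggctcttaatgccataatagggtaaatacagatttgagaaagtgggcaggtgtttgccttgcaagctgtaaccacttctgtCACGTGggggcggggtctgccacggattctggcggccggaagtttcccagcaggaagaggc
Umps was the only 1 with TATAAA, 178 bases before the start, against 13.6% of all windows.

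**Figure D3:**
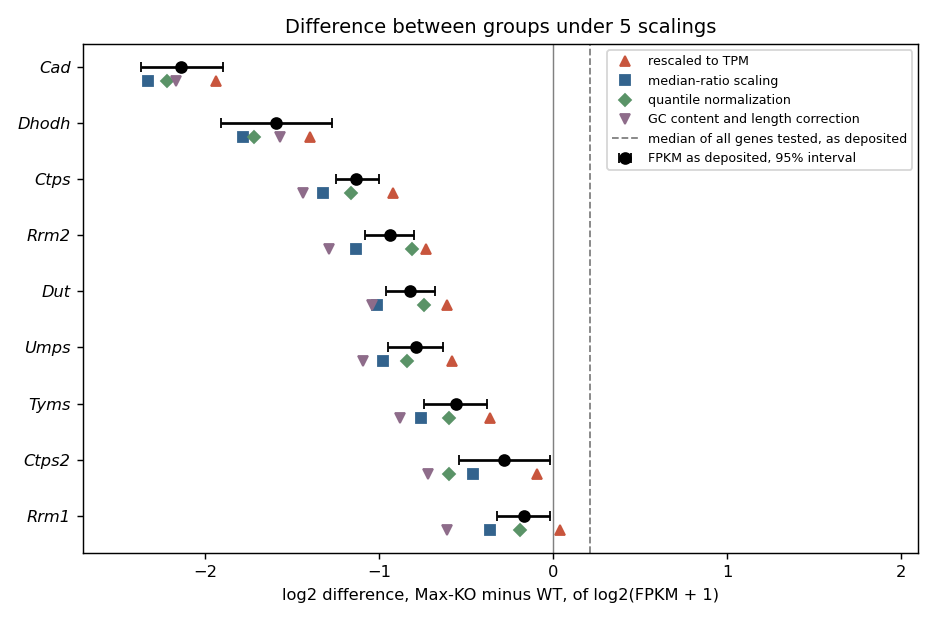
Log2 difference (Max-KO minus WT, horizontal axis) of each enzyme, from FPKM as deposited with its 95% interval (black) and, under it, with 4 other scalings or corrections. Cad, Dhodh and Ctps lie farthest left under each of the 5, Rrm1 crosses 0 after rescaling to TPM, and the dashed line marks the median of all tested genes (0.21).

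The enzymes also changed places. In WT the order by mean level was Rrm2 (175 FPKM), Dut (123), Cad (82.3), Ctps (69.5), Umps (57.5), Rrm1 (57.2), Tyms (54.0), Dhodh (45.7) and Ctps2 (9.19). Among neighbours in this order Umps overlapped with Rrm1, and Tyms with Dhodh. In Max-KO the order was Rrm2 (90.9 FPKM), Dut (69.2), Rrm1 (50.8), Tyms (36.3), Umps (32.8), Ctps (31.3), Cad (18.1), Dhodh (14.3) and Ctps2 (7.40), and Tyms overlapped with Umps. Cad moved from place 3 to place 7, and its share of the enzymes' summed FPKM went from 12.2 ± 0.158% to 5.14 ± 0.687% (SD, n = 3). The share of Rrm1 went from 8.50 ± 0.292% to 14.5 ± 0.804%, while that of Rrm2 was 26.0 ± 0.912% and 25.9 ± 1.71%.

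The other genes of the pathway were read from lists, described by counts and medians with no set test. For comparison, 23.2% of all tested genes were called lower and 43.0% higher, with a median of 0.21. PRPP synthetases make the activated ribose that UMPS uses: 3 of 4 fell and none rose (median −0.67). Prps1, a catalytic subunit, was at 72.8, 78.4 and 73.8 FPKM in WT and 18.9, 28.9 and 18.5 FPKM in Max-KO (log2 difference −1.75 ± 0.16 SE, limma adjusted p = 0.000126). The associated protein gene Prpsap1 fell from 132 ± 5.79 to 68.4 ± 1.42 FPKM (SD, n = 3). Prps2 went from 8.46 to 6.16 FPKM (−0.41, limma adjusted p = 0.0238). It did not pass when WT 2 (adjusted p = 0.0663) or WT 3 (0.0526) was left out, or after rescaling to TPM (−0.24), and was −0.93 with the GC and length correction.

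Of 12 tested salvage and uptake genes 5 were lower and 4 higher (median −0.25), beside 23.2% lower and 43.0% higher among all tested genes. Upp1, the uridine phosphorylase that splits uridine, was at 514, 513 and 596 FPKM in WT and 84.4, 123 and 76.0 FPKM in Max-KO. All Max-KO libraries were far below WT (log2 difference −2.53 ± 0.18 SE, limma adjusted p = 4.72e-05), and only 0.164% of tested genes had a lower difference. Uck2, the uridine-cytidine kinase, fell from 110 ± 8.36 to 39.1 ± 5.87 FPKM and the nucleoside carrier Slc29a2 from 9.47 ± 1.7 to 3.63 ± 0.386 FPKM (SD, n = 3). Uckl1, a relative of the uridine kinases, went up from 7.59 ± 1.38 to 14.0 ± 1.44 FPKM (SD, n = 3), a log2 difference of 0.81 ± 0.13 (SE) that was 0.53 under quantile normalization. Relative to Cad, the level of Uck2 was 1.31, 1.33 and 1.38 in WT and 1.72, 2.0 and 2.93 in Max-KO, so the salvage kinase was higher relative to Cad in each Max-KO library (log2 ratio difference 0.69, exact permutation p = 0.1, the smallest possible). Under median-ratio scaling 7 salvage genes were lower and 1 higher, against 5 and 5 after rescaling to TPM. Of all genes 4642 were lower and 4839 higher under median-ratio scaling, against 2406 and 8407 after rescaling to TPM.

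Kinases that phosphorylate the products were mostly lower, 5 of 8 tested against 1 higher (median −0.45). Among all tested genes 23.2% were lower and 43.0% higher. The nucleoside diphosphate kinase Nme2 went from 882, 863 and 994 FPKM in WT to 307, 323 and 329 FPKM in Max-KO, without overlap (log2 difference −1.51 ± 0.07 SE, limma adjusted p = 5.89e-06). Nme4, its mitochondrial relative, fell from 45.2 ± 6.55 to 8.28 ± 0.966 FPKM and Nme1 from 129 ± 4.90 to 54.7 ± 3.92 FPKM (SD, n = 3). Nme1 and Nme2 are close paralogs, so the split of reads between them is uncertain. Nme6 had a log2 difference of −0.45 ± 0.09 (SE), and −0.25 after rescaling to TPM. Cmpk1, the UMP-CMP kinase, rose from 21.7 ± 0.856 to 26.6 ± 1.08 FPKM (SD, n = 3), with a limma adjusted p of 0.00607. This call depended on scaling. The difference was 0.10 under median-ratio scaling, not called. With the correction for GC content and length it was −0.33 and called lower (limma adjusted p = 0.0138).

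Among genes that support or limit the deoxynucleotide pool 5 of 10 fell and 2 rose (median −0.22), against 23.2% and 43.0% of all tested genes. Dctpp1, which hydrolyses dCTP and its modified forms, fell from 252 ± 30.7 to 65.9 ± 8.26 FPKM (SD, n = 3). Its log2 difference was −1.92 ± 0.11 (SE; limma adjusted p = 1.51e-05). Dctd, the dCMP deaminase that feeds dUMP to TYMS, fell from 22.3 ± 3.46 to 8.93 ± 0.136 FPKM (SD, n = 3). Beside Rrm2b the other gene that rose was Glrx, a glutaredoxin that can pass electrons to ribonucleotide reductase. It was at 1.14, 1.24 and 2.02 FPKM in WT and 15.4, 16.8 and 17.5 FPKM in Max-KO, 11.3-fold higher in mean level (log2 difference 2.85 ± 0.15 SE, limma adjusted p = 9.23e-06). Pyrimidine breakdown genes split evenly, 3 higher and 3 lower of 6 tested, beside 43.0% higher and 23.2% lower among all tested genes, and their median of 0.21 equalled that of all genes. Under quantile normalization 1 was higher and 3 were lower, where 4362 of all genes were higher and 4991 lower. Upb1 rose from 0.983 to 3.99 FPKM, Nt5m from 3.07 to 5.78 and Nt5e from 0.897 to 2.04 FPKM, while the nucleotidase Nt5c3 fell from 16.8 to 10.7 FPKM (−0.60, and −0.99 with the GC and length correction). Under quantile normalization Nt5m (0.37, adjusted p = 0.154) and Nt5e (0.23, adjusted p = 0.157) no longer passed. Upb1 and Nt5e averaged under 1 FPKM in WT, so they were tested only because of their Max-KO level and could only be higher there. Dpyd, the enzyme that starts breakdown, was listed at no more than 0.02 FPKM in any library.

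**Figure D4:**
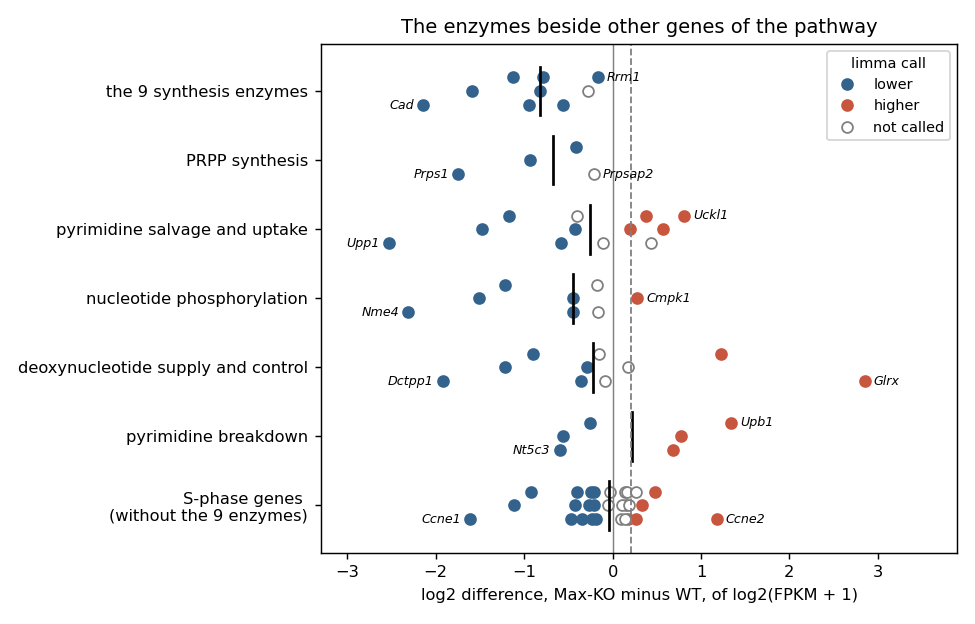
Log2 difference (Max-KO minus WT, horizontal axis) of each tested gene in the enzymes' group and 6 other lists, with genes called lower in blue, higher in red and not called in white. Black bars mark list medians (−0.82 for the enzymes, −0.04 for the S-phase genes), the dashed line the median of all tested genes, and the outermost genes of each list are named.

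Rrm1, Rrm2, Tyms and Dut are transcribed mainly around S phase, so 28 other S-phase genes were set beside them. Of these 13 were lower and 6 higher, with a median of −0.04, beside 23.2% lower and 43.0% higher among all tested genes. Their summed level was 2300 to 2450 FPKM in WT and 2050 to 2090 FPKM in Max-KO. Their balance moved with scaling, to 2 higher and 15 lower under median-ratio scaling, where 4839 of all genes were higher and 4642 lower. After rescaling to TPM it was 14 higher and 6 lower, where 8407 of all genes were higher and 2406 lower. The filter was applied again after each rescaling, so the number of genes tested then may differ from 14661. As deposited, the differences of Rrm2, Dut and Tyms (−0.94, −0.82 and −0.56) were below the list's median of −0.04. That of Rrm1 (−0.17) was nearer to it. With the GC and length correction Rrm1 was at −0.61, against a list median of −0.22. Ccne1, the cyclin of entry into S phase, fell from 114 ± 4.05 to 36.7 ± 1.23 FPKM, the licensing factor Cdt1 from 90.1 ± 5.30 to 41.1 ± 1.14, and Chaf1b, a subunit that loads histones on new DNA, from 54.8 ± 3.06 to 28.6 ± 2.89 FPKM (SD, n = 3). Ccne2 rose from 8.14 ± 1.51 to 19.6 ± 1.07 FPKM, with a log2 difference of 1.18 that was 0.41 with the GC and length correction. Whether a change in the share of cells in S phase contributed to the enzymes' differences was not tested.

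For Cad and Rrm2 the genes with the most similar profile were found by Euclidean distance of log2(FPKM + 1) over the 6 libraries, each less its WT mean. For Cad these were Fndc4 (8.28 ± 0.465 to 1.09 ± 0.380 FPKM, distance 0.221), Palm (18.1 to 3.08 FPKM, 0.222) and Psat1, an enzyme of serine synthesis (132 to 27.1 FPKM, 0.263). For Rrm2 they were Npm3 (150 ± 4.27 to 78.1 ± 3.11 FPKM, distance 0.0724), and the polyamine synthesis genes Amd1 (88.4 to 46.1 FPKM, 0.0750) and Sms (45.7 to 23.5 FPKM, 0.0815; SD, n = 3). With 2 groups of 3 libraries this distance weighs mainly the size of the fall on the log2(FPKM + 1) scale. In mean FPKM Fndc4 fell 7.57-fold, Palm 5.87-fold and Psat1 4.87-fold, against 4.56-fold for Cad.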

How the data were processed

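RNA-seq values of 3 WT and 3 Max-KO libraries were read as deposited, 1 value per identifier. The files have no header; the deposited values were taken as FPKM because they are not whole and their sums differ between libraries. Per the submitters' processing notes FastQC, HISAT2 2.1.0, RSEM and DESeq 1.26.0 were named for build GRCm38.p6, without role or order; for strandedness nothing is stated in the labels. The labels' protocols name Trizol and an Illumina TruSeq kit. All 55536 Ensembl identifiers had a GENCODE M21 symbol, and 1153 assembled loci were left out.

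Genes with a mean of 1 FPKM or more in a group were fitted in limma 3.58.1 (R 4.3.3; trend and robust moderation, genotype as sole factor, 2-sided) after adding a pseudocount of 1. Tables were made in Python 3.11.15 with pandas 2.3.3. The fit was tested on simulated data. A set of 6 ratios were compared by exact permutation of libraries. Depth was estimated as the scaling that brought low FPKM of single-transcript genes closest to whole fragments.

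Named genes were the 9 enzymes, up to 4 called genes per list by size with 1 in the opposite direction, Max, and 3 nearest profiles each for Cad and Rrm2. Members, lists and tests were chosen with earlier results of these data known. Alternatives covered pseudocount, filter, scaling, moderation, gene set, each replicate and the replicate block.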

Additional observations from a re-analysis of the deposited data

How the results depend on the processing

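Cad, Dhodh, Umps, Ctps, Tyms, Dut and Rrm2 were called lower in all 112 values from 16 alternatives. The count of enzymes called lower was 7 to 9, and 7 to 8 when each replicate was left out in turn; none was called higher. Among all genes the correction for GC content and length gave 4134 calls higher and 5228 lower, against 6300 and 3403 as reported. The split was 8407 and 2406 after rescaling to TPM, 4839 and 4642 under median-ratio scaling, and 4362 and 4991 under quantile normalization. Rescaling to TPM turned Rrm1 and Max to 0.04 each (not called, adjusted p = 0.58 and 0.737). The GC and length correction turned Cmpk1 to −0.33 (called lower, limma adjusted p = 0.0138) and Bub1 to −0.24. The causes were not tested. Leaving out replicates moved the log2 ratio differences to −0.94 to −0.77 (Ctps to Ctps2), −0.81 to −0.75 (Rrm2 to Rrm1), 2.33 to 2.41 (Rrm2b to Rrm2), −1.5 to −1.27 (Cad to Umps), −0.35 to −0.20 (Dut to Tyms) and 0.47 to 0.85 (Uck2 to Cad).

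With the replicate number as a block, 6203 genes were higher and 3282 lower, and all 9 enzymes were called lower (Ctps2 −0.28, adjusted p = 0.0381). Deviations of same-numbered libraries had correlations of −0.000616, 0.0160 and 0.0855, against −0.0823 to 0.0653 for libraries of different number. Such values cannot tell whether same-numbered samples shared a culture or a preparation, which the labels do not state.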

Other observations

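Genes of mitosis (G2/M) were also compared. Of 20 tested 10 were lower in Max-KO and 1 higher, with a median of −0.17. Among all tested genes 23.2% were lower and 43.0% higher, with a median of 0.21. Aurka fell from 106 ± 8.37 to 65.1 ± 4.34 FPKM, Aurkb from 79.9 ± 4.47 to 51.6 ± 0.183, Ube2c from 279 ± 12.8 to 181 ± 9.07 and Cdc20 from 220 ± 16.4 to 143 ± 6.77 FPKM (SD, n = 3). The log2 differences of Aurkb, Ube2c and Cdc20 were each −0.62, and −0.41, −0.41 and −0.40 after rescaling to TPM. Bub1, a spindle checkpoint kinase, went up from 51.0 ± 7.77 to 63.1 ± 3.14 FPKM (SD, n = 3), with a limma adjusted p of 0.0426. It did not pass when Max-KO 1, 2 or 3 was left out (adjusted p = 0.102, 0.119 and 0.0626), was 0.12 and not called under median-ratio scaling, and was −0.24 with the correction for GC content and length. Bub1 was at 55.08, 55.85 and 42.03 FPKM in WT 1 to 3. WT 3 was also low for Mki67 (31.45, 34.38 and 14.53 FPKM) and Cenpf (18.43, 20.02 and 8.57 FPKM). Their log2 differences of 0.43 and 0.80 were not called. For Aurka, Ube2c and Cdc20 WT 3 was the highest library, and the cause was not tested. For the list of 20 genes median-ratio scaling gave 14 lower and none higher, where 4642 of all genes were lower and 4839 higher. Rescaling to TPM gave 7 lower and 3 higher, where 2406 of all genes were lower and 8407 higher.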
